A study of Homo sapiens with 20 samples.

Results

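The effect of a general block of translation on mRNA was set against that of depleting a single decay factor. The comparison took the arrays labelled emetine and those labelled shRent1, and paired them by the time after addition of the transcription inhibitor DRB. It used 8 of the 20 arrays of the series, 4 in each condition. All were hybridised with RNA of U2OS cells, a human osteosarcoma line. In the emetine condition the cells received emetine at 100 ug/ml for 3 hr. In the shRent1 condition the cells carried a hairpin against UPF1, whose older name is RENT1. Both conditions then received DRB at 100 ug/ml, and RNA was taken just before DRB (0 hr) and after 1.5, 3 and 4.5 hr. The labels give 1 array for each condition and time, name no separate cultures and do not say how long the hairpin had acted or whether emetine stayed on during DRB. They name no control hairpin for the shRent1 cells. No array of untreated cells entered the comparison, so each difference contains what emetine did and what the hairpin did, and the 2 cannot be told apart.

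Nonsense-mediated decay, or NMD, degrades mRNAs on which a ribosome terminates in an unfavourable place, such as upstream of an exon junction complex or before an unusually long stretch after the stop codon. UPF1 is the RNA helicase at the centre of that pathway, and its activity depends on translation of the target. Emetine binds the small ribosomal subunit and blocks elongation, so it stops NMD together with other kinds of decay that need translating ribosomes, among them the fast turnover of many mRNAs with AU-rich elements and the autoregulated decay of tubulin mRNAs. DRB inhibits the kinases that release RNA polymerase II into elongation, so that the fall of a transcript after DRB reflects its decay.

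Each gene was read from 1 probe set as the log2 of the deposited signal. The level difference is the mean over the 4 pairs of emetine minus shRent1, and positive values are higher with emetine. The slope is the change in log2 signal per hour of DRB, and the slope difference is that of emetine minus that of shRent1. Tests were limma moderated tests over all 14449 genes with Benjamini-Hochberg adjustment, and a call is an adjusted p under 0.05. The pairs are times and not replicates, so a gene whose gap widened with time has a larger error on its level difference. The arrays were scaled to each other by the authors, so slopes are relative to the typical transcript of an array and carry no absolute half-life. The deposited table as used here has no detection calls, and values under the filter level, log2 4.66, are near the lower end of the scale, which makes the size of a fold against them uncertain.

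The 8 arrays correlated with each other at 0.939 to 0.996 over all 54675 probe sets, and their median signals lay between 37.3 and 39.4. Over the genes tested, the correlation between the 2 arrays of a pair was 0.963 at 0 hr and 0.917 at 4.5 hr. The ratio of the 3' to the 5' control probe sets for ACTB was 1.79 to 2.23 on the log2 scale with emetine and 1.16 to 1.31 in shRent1, with no overlap, while that for GAPDH was 0.0910 to 0.145 and 0.0547 to 0.0912. The part of this difference between the conditions in the results below was not tested. Of 26 mesenchymal and matrix genes typical of such cells, 22 were tested, with mean levels in a condition of log2 4.49 to 13.9. Of 24 markers of other cell types, 14 passed the filter, at mean log2 levels in a condition of 4.34 to 8.0. The summed linear signal of those 14 was 893 to 1029 with emetine and 928 to 1146 in shRent1. In this list CD14 was called higher with emetine and PECAM1, SNAP25 and DES were called higher in shRent1, against 22.1% and 25.1% of all genes.

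Many genes differed in level between the conditions, and the large differences were mostly on the emetine side. Emetine was higher for 3192 of 14449 genes (22.1%) and shRent1 for 3622 (25.1%). Differences of more than 2-fold were called for 1177 genes higher with emetine and for 223 higher in shRent1, and those of more than 4-fold for 290 and 11. Of the 6814 genes called, 5890 had ranges of the 4 arrays that did not overlap between the conditions. The share over all genes was not counted, so this number adds no support to the calls. Among 52 cytosolic ribosomal protein genes, with 0 called, the ranges did not overlap for 2 higher with emetine and 13 higher in shRent1. The median over all genes was -0.05. Genes with all 4 pairs in the same direction numbered 3830 for emetine and 4907 for shRent1. With the arrays centred on ribosomal protein genes, 3645 genes were called higher with emetine and 2903 in shRent1. Which side had more calls thus depended on the scaling.

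**Figure D1:**
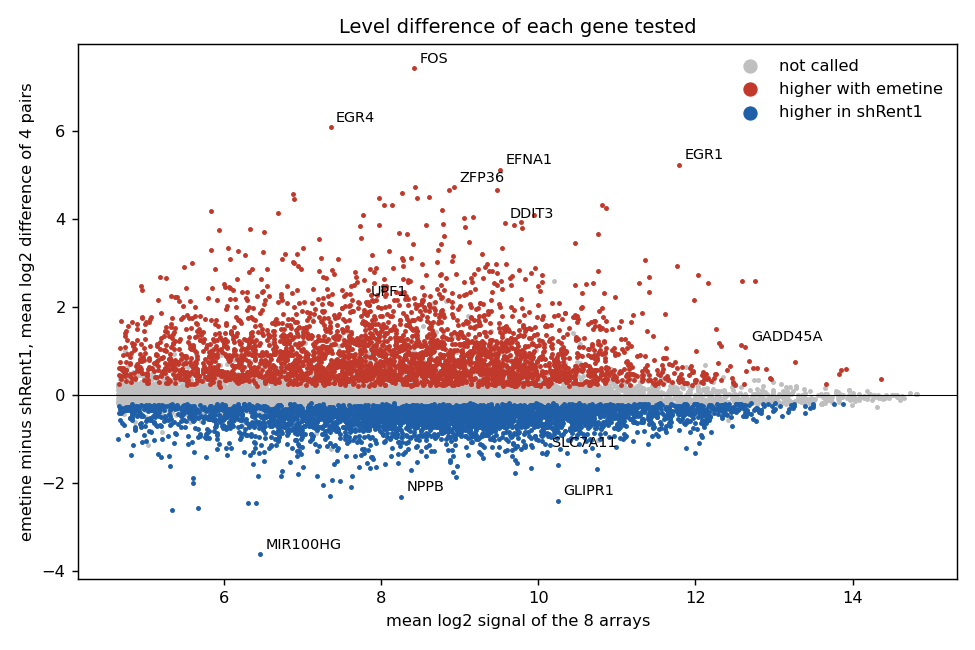
Level difference, emetine minus shRent1 on the log2 scale as the mean of 4 pairs, against the mean log2 signal of the 8 arrays, 1 point per gene tested. Red and blue points are the 3192 and 3622 genes called higher with emetine and in shRent1. The upward spread is the wider, with FOS at 7.42, and the lowest value is that of MIR100HG at -3.63.

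The gap between the conditions widened with time in DRB. The standard deviation over genes of the paired difference was 0.593 at 0 hr, 0.621 at 1.5 hr, 0.757 at 3 hr and 0.880 at 4.5 hr. The number of genes more than 2-fold higher with emetine was 736, 1010, 1388 and 1896 at those times. On the shRent1 side it was 411, 184, 317 and 241, with no such course.

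UPF1 mRNA itself was lower in the shRent1 arrays. The brighter of its 2 probe sets read 538, 419, 426 and 496 with emetine in order of time, and 170, 92.4, 94.7 and 89.4 in shRent1, on the linear scale. The ranges were far apart, and the shRent1 signal was 23.0% of that with emetine, a log2 difference of 2.12 (SE 0.137, 4 pairs, adjusted p 0.000652). The dimmer probe set gave 60.8%, at signals of 58.1 to 128. No untreated array was used, so the percentage is against emetine-treated cells and is not the depth of the knockdown.

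The other NMD factors were split. Of 11 core factors tested besides UPF1, 5 were called higher with emetine and 2 in shRent1, against 22.1% and 25.1% of all genes, with a median difference of 0.09. SMG8, a subunit of the SMG1 kinase complex that phosphorylates UPF1, had log2 signals of 10.61, 10.45, 10.42 and 10.41 with emetine and fell through 9.86, 8.76, 6.92 and 5.76 in shRent1. Its slope difference was 0.90 per hr (SE 0.0556, adjusted p 0.00249). PNRC2, which links UPF1 to decapping, held 11.78, 11.67, 11.67 and 11.69 with emetine and went through 11.41, 10.65, 9.46 and 8.26 in shRent1, a slope difference of 0.69 (adjusted p 0.0029). For both transcripts emetine was the higher by 1.68- and 1.29-fold before DRB and by 25.2- and 10.8-fold at its end. Their level differences of 2.65 and 1.76 were called, and lost the call without the 1.5 or the 3 hr pair (highest adjusted p 0.0953 and 0.13).

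SMG5, the adapter that brings phosphorylated UPF1 to the deadenylation machinery and whose own mRNA is a known NMD target, went the other way. It read 9.39, 9.40, 9.38 and 9.31 with emetine and 9.82, 10.08, 10.18 and 10.21 in shRent1, a difference of -0.70 (SE 0.0946, adjusted p 0.00324). The ranges did not overlap. UPF2, the bridge between UPF1 and the exon junction complex, was higher with emetine by 0.68 (adjusted p 0.00232), and DHX34, an NMD helicase, was higher in shRent1 (-0.33). Of 7 tested components of the exon junction complex, EIF4A3, RNPS1 and PYM1 were called higher with emetine, against 22.1% of all genes. MAGOHB was called higher in shRent1 (-0.40), against 25.1% of all genes, and was -0.62 with another choice of probe sets. The call for PYM1, a recycling factor of the complex at 1.14, turned to -0.45 when probe sets marked as shared between transcripts were left out, and was lost without the 3 hr pair. That for RNPS1 at 0.50 was lost without the 1.5 or the 3 hr pair (highest adjusted p 0.0983).

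Stress transcripts known as NMD targets differed in both directions. Of 19 tested, 8 were called higher with emetine and 4 in shRent1, and 8 had a higher slope with emetine, against 22.1%, 25.1% and 10.9% of all genes. The count on the shRent1 side is near that background. The median level difference was 0.04, beside -0.05 for all genes. Those on the emetine side were DDIT3, DUSP1, GADD45B, ATF3, ARC, PIM3, GADD45A and IFRD1, and those on the shRent1 side were SLC7A11, NAT9, ASNS and CARS1.

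DDIT3, the transcription factor CHOP of prolonged stress, had log2 signals of 11.62, 11.38, 11.53 and 11.58 with emetine. In shRent1 it went through 8.40, 8.0, 7.31 and 6.78. Emetine was 9.31-fold higher before DRB and 28.0-fold higher at 4.5 hr, the level difference was 3.91 (SE 0.282, adjusted p 0.000772) and the slope difference 0.37 (SE 0.0495, adjusted p 0.00983). The slope call was lost without the 4.5 hr pair (adjusted p 0.131) and with the spread taken from the 16 arrays that are no controls (adjusted p 0.0758). ATF3, a stress-induced repressor, read 12.22, 11.73, 11.87 and 12.09 with emetine and 9.93, 9.91, 9.34 and 8.53 in shRent1. Its level difference of 2.55 (SE 0.277, adjusted p 0.0018) was 1.59 from the median of its 3 probe sets, and its slope difference of 0.30 was not called (adjusted p 0.128), but was 0.58 and called without the 0 hr pair (adjusted p 0.0107).

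The GADD45 genes, which encode growth arrest and DNA damage proteins, separated mainly during DRB. GADD45A held 13.16, 13.09, 13.15 and 13.34 with emetine and declined through 12.86, 12.29, 11.76 and 11.44 in shRent1. Its slope difference was 0.36 (SE 0.033, adjusted p 0.00384), and emetine was 1.23-fold higher before DRB and 3.73-fold at its end. The level difference of 1.10 was lost without the 1.5 or the 3 hr pair (highest adjusted p 0.0903), and the slope call without the 4.5 hr pair (adjusted p 0.0523) or with the spread of all 20 arrays (adjusted p 0.0718). GADD45B read 12.30, 12.01, 12.19 and 12.17 with emetine and 11.04, 10.00, 8.69 and 7.70 in shRent1, a slope difference of 0.74 (SE 0.0497, adjusted p 0.00249). That slope depended on the probe set, being 0.04 without the shared ones, and the level difference of 2.81 was 1.57 there and lost its call without the 3 hr pair.

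ATF4, the transcription factor of the integrated stress response and an NMD target through its upstream reading frames, differed little. It read 13.49, 13.43, 13.49 and 13.56 with emetine and 13.76, 13.74, 13.75 and 13.59 in shRent1, a difference of -0.22 (SE 0.0754) that missed the call (adjusted p 0.062). It passed in 7 of the alternatives, among them leaving out the 4.5 hr pair (-0.28, adjusted p 0.0344). SLC7A11, the cystine transporter and an ATF4 target, was higher in shRent1 at every time. Its values were 9.24, 9.62, 9.5 and 9.47 with emetine and 10.72, 10.73, 10.79 and 10.79 in shRent1, a difference of -1.30 (SE 0.0823, adjusted p 0.000642) that hardly changed with DRB.

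**Figure D2:**
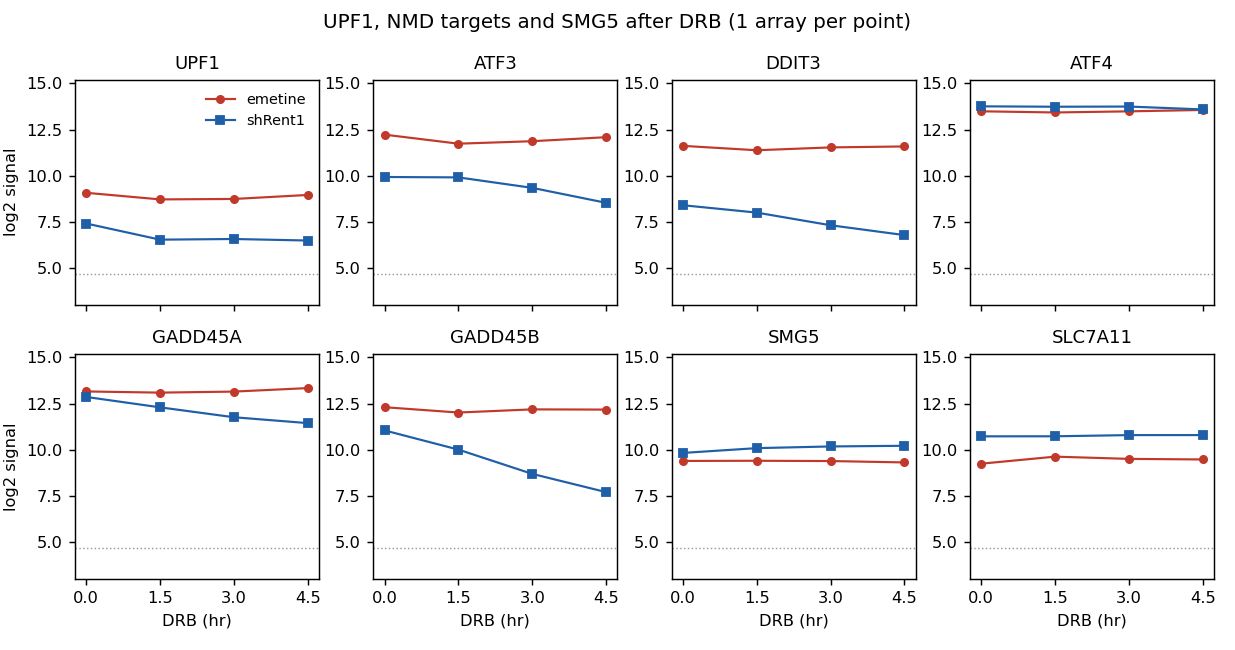
Log2 signal against hours of DRB for UPF1 and 7 NMD-related transcripts with emetine (red circles) and in shRent1 (blue squares), 1 array per point and so no error bars. The dotted line is the filter level. DDIT3, GADD45A and GADD45B descend in shRent1 and are level with emetine, while SMG5 and SLC7A11 lie higher in shRent1.

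Among 23 other reported NMD targets, 7 were called higher with emetine, 6 in shRent1 and 4 had a higher slope with emetine, with a median difference of -0.01. The shares of all genes were 22.1%, 25.1% and 10.9%, so these counts are near the background. CCNG2, an atypical cyclin, had the largest gap of the list. Its signals were 11.06, 10.55, 10.67 and 10.67 with emetine and 6.49, 7.22, 7.0 and 6.68 in shRent1. The difference of 3.89 (SE 0.205, adjusted p 0.000514) was 2.37 from the median of its 5 probe sets. CDKN1A, the p21 inhibitor of cyclin-dependent kinases, was higher by 1.57 (adjusted p 0.0021), and PCNX1, ANTXR1, PDRG1, ARHGEF18 and PTPN12 joined SMG5 on the shRent1 side at -0.91 to -0.22. Of 6 host genes of small nucleolar RNAs tested, SNHG32, EPB41L4A-AS1 and ZFAS1 were called higher with emetine and SNHG4 in shRent1. Among all genes these shares were 22.1% and 25.1%. GAS5, whose spliced RNA is a classical NMD target, was read at mean log2 4.66 and 4.79, at the filter level, so its value says nothing on whether it differed. For EPB41L4A-AS1 the median of probe sets gave -0.16, and the calls for EPB41L4A-AS1, ZFAS1 and SNHG4 were each lost without 2 of the pairs (highest adjusted p 0.106). None of the 6 had a called slope difference by limma, and 2 had an unadjusted p under 0.05.

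Immediate early transcripts, which serum and stress induce within minutes and which AU-rich elements make short-lived, differed most. Of 40 tested, 33 were called higher with emetine, 2 in shRent1, and 22 had a higher slope with emetine, against 22.1%, 25.1% and 10.9% of all genes. The median difference of the list was 2.68, and it was 1.44 before DRB, 2.41 at 1.5 hr, 3.49 at 3 hr and 3.32 at 4.5 hr. More than 2-fold falls from 0 to 4.5 hr were seen for 28 of the 40 in shRent1 and for 0 with emetine, against 8.72% and 0.927% of all genes.

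FOS, a subunit of the AP-1 transcription factor, had log2 signals of 12.45, 12.14, 11.92 and 12.03 with emetine and 5.22, 4.82, 4.33 and 4.48 in shRent1. This was the largest level difference of all genes, 7.42 (SE 0.0869, adjusted p 1.38e-05). In shRent1 2 of the arrays were under the filter level, so the size of the fold is uncertain. EGR1, a zinc finger factor of the same early response, read 14.51, 14.51, 14.30 and 14.30 with emetine, near the top of the scale, and 9.73, 9.43, 8.71 and 8.83 in shRent1. Its difference was 5.23 (SE 0.148, adjusted p 0.000242), or 37.6-fold with ranges that did not overlap. ZFP36, the protein that binds AU-rich elements and recruits deadenylases, read 11.63, 11.34, 11.07 and 11.15 with emetine and 7.10, 6.46, 6.30 and 6.42 in shRent1, a difference of 4.73 (SE 0.0803, adjusted p 5.27e-05). For these 3 genes the gap was already there before DRB and no slope difference was called (adjusted p 0.215, 0.0797 and 0.678), although that of EGR1 passed in 3 alternatives.

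SRF and EGR3 were the 2 members called higher in shRent1, at -0.90 and -0.65. SRF encodes the serum response factor, which binds the CArG box in promoters of early genes. Its signals were 8.88, 8.82, 8.80 and 8.87 with emetine and 9.81, 9.74, 9.86 and 9.57 in shRent1 (SE 0.0817, adjusted p 0.00125). The promoters of EGR1 and SRF are shown because these genes moved in opposite directions while both carry CArG boxes, marked in capitals. They are RefSeq sequences of GRCh38.p14, 250 bases before to 50 after the start, for EGR1 at chr5:138465229-138465528 and for SRF at chr6:43171019-43171318, both on the plus strand.
EGR1 promoter: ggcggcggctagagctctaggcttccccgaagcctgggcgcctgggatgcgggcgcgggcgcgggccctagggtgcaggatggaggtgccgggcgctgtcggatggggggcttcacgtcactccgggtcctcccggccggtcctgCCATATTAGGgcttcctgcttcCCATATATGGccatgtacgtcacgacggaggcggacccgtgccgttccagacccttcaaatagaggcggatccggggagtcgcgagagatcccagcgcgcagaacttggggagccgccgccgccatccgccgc
SRF promoter: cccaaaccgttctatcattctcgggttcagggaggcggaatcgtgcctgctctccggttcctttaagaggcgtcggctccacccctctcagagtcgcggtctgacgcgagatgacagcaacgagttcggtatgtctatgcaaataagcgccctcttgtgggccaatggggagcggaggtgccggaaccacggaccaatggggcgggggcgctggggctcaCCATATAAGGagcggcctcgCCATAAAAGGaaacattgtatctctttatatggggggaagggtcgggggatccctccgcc
The boxes begin 105 and 83 bases before the start of EGR1, and 30 and 10 bases before that of SRF. They were the only promoters with a match among 29 of the list, and 1.29% of 27305 promoters held a CArG box on either strand. SRF was picked after its values were seen.

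The genes with the 8 largest differences also held EFNA1, a ligand of Eph receptors (5.12), TENT5B, a poly(A) polymerase (4.73), DUSP2, a phosphatase of MAP kinases (4.66), SERTAD3, a transcriptional regulator (4.65), and EGR4 (6.09). EGR4 read 9.96 to 10.83 with emetine and 3.62 to 5.33 in shRent1, where 3 arrays were under the filter level. Another choice of its probe set gave 2.84, still called. EFNA1 and DUSP2 also had called slope differences of 0.35 and 0.46, which were lost in 5 and 4 of the alternatives, among them leaving out the 4.5 hr pair for EFNA1 (adjusted p 0.399) and the 0 hr pair for DUSP2 (adjusted p 0.232).

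Inflammatory transcripts and reported targets of the endonuclease Regnase-1 were mostly higher with emetine, and few had a called slope difference. Of 22 tested, 15 were called higher with emetine, 3 in shRent1, and TNFAIP3, PHLDA1 and LIF had a higher slope with emetine. The shares of all genes were 22.1%, 25.1% and 10.9%, and the count of slopes is near the last. The median difference was close to 1.0, and it was 0.88 before DRB and 0.82 at 4.5 hr. Some members did separate, since 7 of the 22 fell by more than 2-fold in shRent1 and 2 with emetine. For all genes those shares were 8.72% and 0.927%. CXCL8, the neutrophil chemokine, read 11.71, 11.17, 11.29 and 11.50 with emetine and 9.13, 8.41, 8.58 and 8.62 in shRent1. The gap of 2.73 (SE 0.074, adjusted p 0.000242) was 6.0-fold before DRB and 7.34-fold at its end. CCL20, another chemokine, was 1.01 higher (adjusted p 0.000609), with paired differences that had a standard deviation of only 0.0498. IL11, a cytokine of the IL-6 family, read 8.28, 8.32, 8.08 and 8.41 with emetine and 9.62, 9.43, 9.51 and 9.57 in shRent1. This difference of -1.26 (adjusted p 0.000649), that of TNFRSF11B, the decoy receptor osteoprotegerin (-1.85), and that of SOD2, the mitochondrial superoxide dismutase (-0.88), were the exceptions in the list.

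TNFAIP3, the A20 inhibitor of NF-kB signalling, had both a gap and a divergence. It held 11.97, 11.45, 11.45 and 11.61 with emetine and fell through 9.17, 7.89, 7.16 and 6.82 in shRent1. Its level difference was 3.86 (SE 0.328, adjusted p 0.00113) and its slope difference 0.45 (SE 0.0369, adjusted p 0.00322).

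Decline after DRB was a feature of the shRent1 arrays. Between 0 and 4.5 hr, 1260 genes (8.72%) fell by more than 2-fold in shRent1 and 134 (0.927%) with emetine. The 75 genes in both sets were 56.0% of the emetine set and 5.95% of the shRent1 set. Over all genes the standard deviation of the change was 0.672 in shRent1 and 0.307 with emetine, and the medians were 0.09 and 0.11. A higher slope with emetine was called for 1571 genes (10.9%) and a higher slope in shRent1 for 152 (1.05%). Of the 1571, 1568 had a negative slope in shRent1, and their median slopes were 0.01 with emetine and -0.27 in shRent1.

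These counts depended on the ends of the time course. Without the 4.5 hr pair 334 genes had a higher slope with emetine and 9 in shRent1, and without the 0 hr pair 611 and 27. Among the 1571 genes, 844 lay within 0.5 log2 units of each other before DRB, 492 were already higher with emetine by more than that and 235 were higher in shRent1. Of the same 1571, 869 were also called higher in level with emetine, 35 were called higher in level in shRent1 and 667 had no level call.

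**Figure D3:**
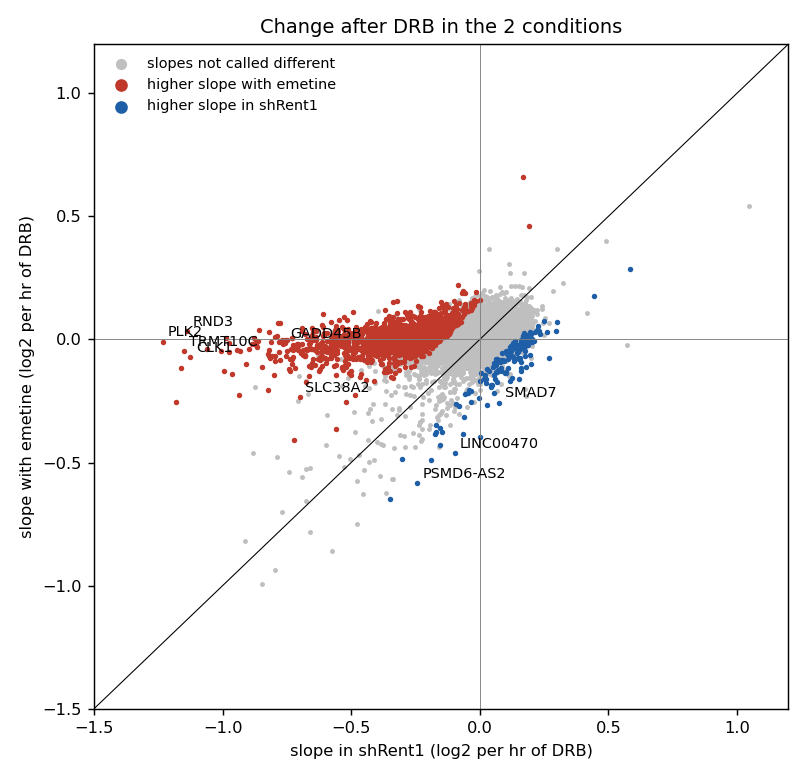
Slope with emetine against slope in shRent1, in log2 units per hour of DRB, 1 point per gene tested, with the line of equal slopes. The 1571 red genes form a flat band, falling in shRent1 and near 0 with emetine, and the 152 blue genes lie under the line.

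The largest slope difference was that of PLK2, a stress-responsive polo-like kinase. It read 11.70, 11.71, 11.68 and 11.66 with emetine and 10.89, 8.77, 6.39 and 5.51 in shRent1. Its slope difference was 1.22 per hr (SE 0.0977, adjusted p 0.00313). RND3, a small GTPase that antagonises RhoA, was at 11.37 and 11.42 in the 2 conditions before DRB. It then stayed at 11.55, 11.46 and 11.57 with emetine and fell to 10.00, 7.72 and 6.48 in shRent1, a slope difference of 1.17 (SE 0.0544, adjusted p 0.00249). SGK1, a serum- and glucocorticoid-regulated kinase, showed the same order of events, from 10.10 and 10.45 before DRB to 9.70 and 5.41 at 4.5 hr (slope difference 1.05, SE 0.0554, adjusted p 0.00249). In RND3 and SGK1 the ranges of the conditions overlapped and the level difference was not called (adjusted p 0.0531 and 0.066), though it passed in 9 and 3 of the alternatives. The level difference of PLK2, 3.79, was lost without the 1.5 or the 3 hr pair (highest adjusted p 0.0838).

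TRMT10C, a subunit of mitochondrial RNase P, had a slope difference of 1.10 (adjusted p 0.00249), from 10.06 and 9.69 before DRB to 9.89 and 4.79 at 4.5 hr. CLK1, a kinase of splicing factors, read 10.62, 10.16, 10.17 and 10.26 with emetine and 8.28, 7.26, 5.0 and 3.41 in shRent1. The last value was under the filter level, and the slope call of 1.05 was lost without that pair (adjusted p 0.0528). TIFA, an adaptor of NF-kB signalling, gave 1.02 from its brightest probe set and -0.04 from the median of its 3.

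**Figure D4:**
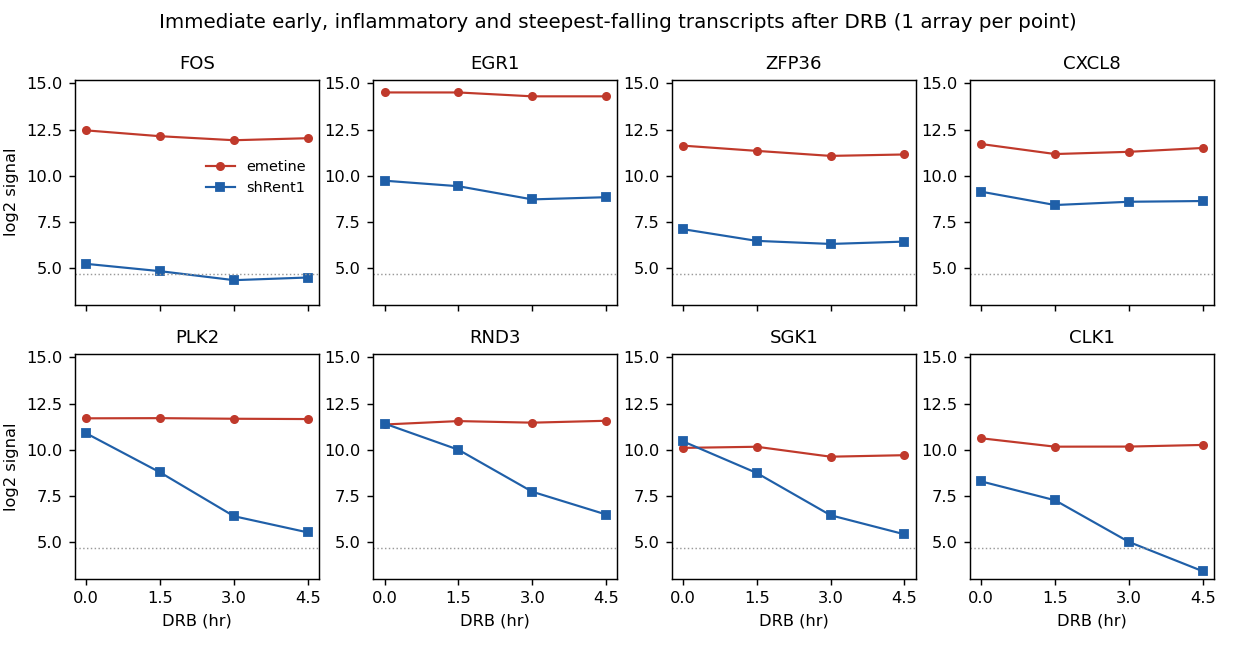
Log2 signal against hours of DRB for 8 transcripts with emetine (red circles) and in shRent1 (blue squares), 1 array per point and so no error bars. The dotted line is the filter level. FOS, EGR1, ZFP36 and CXCL8 are apart from 0 hr on, while RND3 and SGK1 start together and separate as shRent1 falls.

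The 152 genes with a higher slope in shRent1 showed a smaller effect, with median slopes of -0.07 with emetine and 0.12 in shRent1. Of them 128 had a slope below 0 with emetine and 131 a slope above 0 in shRent1. SMAD7, an inhibitor of TGF-beta signalling, read 9.49, 9.52, 8.90 and 8.41 with emetine and 8.11, 7.92, 8.20 and 8.40 in shRent1. Its slope difference of -0.33 (SE 0.0756, adjusted p 0.0451) was lost without the 3 or the 4.5 hr pair (highest adjusted p 0.406). NR6A1, an orphan nuclear receptor, had -0.30 (adjusted p 0.00792), lost without the 0 or the 4.5 hr pair and with the median of its 7 probe sets. PSMD6-AS2, an antisense RNA, fell from 7.99 to 5.54 with emetine and from 6.96 to 5.85 in shRent1, a difference of -0.34 (adjusted p 0.0257) that was lost without the 0 or the 4.5 hr pair. LINC00470, PROCA1 and ADAM33 completed the 6 lowest at -0.36, -0.31 and -0.29, and the value of LINC00470 turned to 0.01 with the median of its 4 probe sets.

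Splicing factors with poison exons, whose inclusion makes a transcript a target of NMD, were mostly higher with emetine where a difference was called. Of 27 tested, 15 were called higher with emetine and SRSF5 alone in shRent1 (-0.57), and 8 had a higher slope with emetine, against 22.1%, 25.1% and 10.9% of all genes. The median difference was 0.37. PTBP2, the neuronal polypyrimidine tract binding protein, read 9.95, 10.18, 10.30 and 10.25 with emetine and 8.76, 9.03, 9.12 and 9.06 in shRent1. Its paired differences of 1.18 (SE 0.0593, adjusted p 0.000497) varied with a standard deviation of 0.0218, so that both conditions moved in parallel. CLK4, a kinase related to CLK1, was higher by 3.65 (adjusted p 0.0016), or by 1.31 from the median of its 4 probe sets. HNRNPA1, an abundant RNA-binding protein, gave 2.59 from the brightest probe set, where it fell from 13.39 to 9.79 in shRent1, and -0.29 from the median of its 3. The arrays do not separate poison exon isoforms from the others.

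The integrated stress response was one of the lists with more members on the shRent1 side. Of 36 tested, 18 were called higher in shRent1 and 8 with emetine, against 25.1% and 22.1% of all genes. A higher slope with emetine was called for 9, against 10.9% of all genes. The median difference was -0.24. On the shRent1 side were mainly aminoacyl-tRNA synthetases, amino acid transporters and enzymes of serine and one-carbon metabolism. Among them SLC7A5 was at -0.85, WARS1 at -0.74, PSPH at -0.71, MTHFD2 at -0.49 and PHGDH at -0.41. On the emetine side were DDIT3, PPP1R15A, SLC38A2, DDIT4, CEBPB, SQSTM1, SESN2 and CTH.

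PPP1R15A, the GADD34 phosphatase subunit that reverses eIF2 phosphorylation, read 11.05, 10.74, 10.81 and 10.82 with emetine and 8.16, 7.58, 7.03 and 6.78 in shRent1. Its difference of 3.47 (SE 0.207, adjusted p 0.000593) did not depend on 1 pair, while its slope difference of 0.27 was lost without the 0 or the 4.5 hr pair. CEBPB, a leucine zipper factor, started at 11.63 and 11.44 and ended at 11.51 and 8.38, a slope difference of 0.68 (adjusted p 0.00322), and its level difference of 1.56 (adjusted p 0.0489) was lost without the 1.5, the 3 or the 4.5 hr pair. The values of SLC38A2, an amino acid transporter at 1.85, came from a shared probe set and were -0.01 without such sets.

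ASNS, asparagine synthetase and a standard target of ATF4, is shown as an example of the synthetic arm, picked after its values were seen. Its signals were 10.45, 10.70, 10.74 and 10.91 with emetine and 11.15, 11.11, 11.16 and 11.16 in shRent1, a difference of -0.44 (SE 0.0914, adjusted p 0.0121). The ranges did not overlap, and the gap was narrowest at 4.5 hr. Its promoter lies at chr7:97872359-97872658 on the minus strand of GRCh38.p14 and holds the ATF4 element TGATGNAA, marked in capitals, 68 bases before the start.
ASNS promoter: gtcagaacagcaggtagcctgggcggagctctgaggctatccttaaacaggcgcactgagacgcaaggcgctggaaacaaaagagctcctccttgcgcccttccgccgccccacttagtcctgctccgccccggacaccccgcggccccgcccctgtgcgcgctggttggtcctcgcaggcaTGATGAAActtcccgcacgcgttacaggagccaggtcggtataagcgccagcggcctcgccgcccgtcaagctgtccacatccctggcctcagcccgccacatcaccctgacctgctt
The element, searched on both strands, was in 8 of 29 promoters of the list (27.6%), those of TARS1, ASNS, IARS1, SLC3A2, SLC7A1, CHAC1, AARS1 and NARS1. It was in 1003 of 27305 promoters of RefSeq (3.67%) and in 230 of 11502 of genes tested (2.0%). Of the 8 genes, ASNS, IARS1, SLC7A1, AARS1 and NARS1 were called higher in shRent1, in a list where 18 of 36 were, and the estimates of all 8 were below 0. Over all genes called, the element was in 2.06% of promoters of those higher in shRent1 and in 1.78% of those higher with emetine.

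Genes of the endoplasmic reticulum stress response were called in both directions. Of 35 tested, 12 were called higher in shRent1 and 5 with emetine, against 25.1% and 22.1% of all genes. On the shRent1 side were, among others, the folding enzymes PDIA3, PDIA4, PDIA6 and P4HB and the glucosyltransferase UGGT1 (-0.78, or -0.44 from the median of its 5 probe sets). The 5 called higher with emetine were ERO1B, DNAJB9, EIF2AK3, ERN1 and ATF6, of which the last 3 encode the sensors of the response. The call of DNAJB9, a co-chaperone, was lost without the 1.5, the 3 or the 4.5 hr pair (highest adjusted p 0.125). ERN1 was at 0.99 and ATF6 at 0.60, and the median of its probe sets put ERN1 at 0.58 and ATF6 at -0.20. XBP1, the transcription factor downstream of ERN1, read 8.05, 8.39, 8.31 and 8.41 with emetine and 8.62, 8.06, 6.80 and 5.15 in shRent1. It was higher in shRent1 before DRB and 9.57-fold higher with emetine at 4.5 hr, with a slope difference of 0.84 (SE 0.063, adjusted p 0.0029) that was 0.34 from the median of both probe sets. HSPA5, the main chaperone of the compartment, was at 0.17 with no call.

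Mitotic transcripts were higher with emetine as a group. Of 30 tested, 25 were called higher with emetine and BUB3 in shRent1 (-0.28), 9 had a higher slope with emetine, against 22.1%, 25.1% and 10.9% of all genes, and the median difference went from 0.47 before DRB to 0.98 at 4.5 hr. TOP2A, the mitotic topoisomerase, read 11.29, 11.27, 11.31 and 11.10 with emetine and 10.78, 10.74, 10.70 and 10.53 in shRent1, a difference of 0.56 (SE 0.0608, adjusted p 0.00183). NEK2, a centrosomal kinase, was higher by 0.85 (adjusted p 0.00141). WEE1, the inhibitor of CDK1, separated during DRB from 10.62 and 10.17 to 10.05 and 6.64, a slope difference of 0.66 (SE 0.0337, adjusted p 0.00249). Its level difference of 1.90 was lost without the 1.5 or the 3 hr pair. AURKA, at 1.72, was 0.51 without shared probe sets, and CDC25C, at 1.66, was 0.14 from the median of its probe sets with no call.

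Of 28 DNA replication genes, 7 were called higher with emetine and 5 in shRent1, near the 22.1% and 25.1% of all genes, with a median difference of 0.01. A higher slope with emetine was called for 7, against 10.9% of all genes. The MCM2 to MCM7 helicase subunits lay between -0.13 and 0.08 and none was called. Of 22 targets of p53, 10 were called higher with emetine and 5 in shRent1, against 22.1% and 25.1% of all genes. ZMAT3, an RNA-binding target, was at -1.06 (adjusted p 0.00148), and MDM2, the ubiquitin ligase of p53, at 0.92 (adjusted p 0.000742), which the median of its 10 probe sets reduced to 0.24 with no call. Of 19 histone and histone-related genes tested, 7 were called higher with emetine and H2BC4 in shRent1, against 22.1% and 25.1% of all genes. Those higher with emetine were led by H2AC8, H3C2 and H1-10. H1-10, a linker histone, read 11.78, 11.57, 11.76 and 11.88 with emetine and 10.81, 10.65, 10.58 and 10.46 in shRent1, a difference of 1.12 (adjusted p 0.00129), while H3C2 and H2AC8 had 3 arrays each under the filter level in shRent1.

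Cytosolic ribosomal protein genes had the narrowest span of level differences among the lists. Of 52 tested, 0 were called by limma for the level difference or the slope difference, and 2 and 0 had an unadjusted p under 0.05. For all genes the called shares were 22.1% and 25.1% for level and 10.9% and 1.05% for slope, with emetine and in shRent1. Their level differences lay between -0.31 and 0.11 with a median of -0.06, beside -0.05 for all genes. Their median levels were log2 14.02 with emetine and 14.09 in shRent1, near the top of the scale. The part of that in the small differences was not tested. Of 28 ribosome biogenesis factors, 3 were called higher with emetine, 6 in shRent1 and 9 with a higher slope with emetine, against 22.1%, 25.1% and 10.9% of all genes. RRS1, needed for the large subunit, read 10.77, 10.77, 10.91 and 10.99 with emetine and 11.29, 10.63, 9.76 and 8.80 in shRent1, crossing over within the first interval (slope difference 0.61, SE 0.0414, adjusted p 0.00249). MPHOSPH10, a component of the small subunit processome, went from 9.98 and 10.06 before DRB to 9.96 and 5.77 at 4.5 hr (slope difference 0.96, adjusted p 0.00311). RRP9, which binds U3 RNA, was higher in shRent1 at all times, at -0.65 (adjusted p 0.00169).

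Of 41 nuclear genes of oxidative phosphorylation, 14 were called higher in shRent1 and 0 with emetine, against 25.1% and 22.1% of all genes. In the emetine direction limma gave 0 at an unadjusted p under 0.05. The differences were small, with a median of -0.17 and a lowest value of -0.49 for UQCR11, a subunit of complex III, which was -1.40 without shared probe sets. NDUFA8, of complex I, read 10.30, 10.43, 10.42 and 10.59 with emetine and 10.67, 10.77, 10.90 and 10.96 in shRent1, a difference of -0.39 (SE 0.0631, adjusted p 0.00556). No slope difference was called by limma in the list, and 2 had an unadjusted p under 0.05.

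Tubulin mRNAs are degraded on the ribosome when free tubulin is in excess, through the factor TTC5, and so were followed individually. Of 15 genes tested, TUBD1, TUBB2B and TUBB2A were called higher with emetine, TUBE1, TUBA4A, TUBB6 and TUBG1 in shRent1, and 8 were not called. These counts are near the 22.1% and 25.1% of all genes. The isotypes TUBA1B and TUBB were among those with no call. TUBA1B was at 14.31 to 14.36 with emetine and 14.36 to 14.45 in shRent1, with a difference of -0.06 (adjusted p 0.448), and TUBB was at 13.82 to 13.86 and 13.73 to 13.82, with 0.05 (adjusted p 0.503). TUBA1C, TUBB4B, TUBA1A, TUBB3, TUBG2 and TTC5 lay between -0.18 and 0.20 with no call. TUBB6 was at -0.41 (adjusted p 0.00495), TUBA4A at -0.58 (adjusted p 0.0042), TUBE1 at -0.74, or -0.40 from the median of both probe sets, and TUBB2B at 0.58 (adjusted p 0.00285). The calls for TUBB2A (0.43) and TUBG1 (-0.31) were lost without the 1.5 or the 3 hr pair. TUBD1, which encodes the delta-tubulin of centrioles, read 10.23, 10.10, 10.15 and 10.11 with emetine and 8.52, 8.18, 7.90 and 8.0 in shRent1, a difference of 2.0 (SE 0.105, adjusted p 0.000514). No slope difference of a tubulin was called by limma, with 2 at an unadjusted p under 0.05, although that of TUBD1, 0.10, was 0.28 and called with either other choice of probe sets.

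Targets of Staufen-mediated decay, which also uses UPF1 but is recruited by a structure after the stop codon, were few and split. Of 10 tested, STAU2, TGFB2 and ID4 were called higher with emetine, and CSRP1, KRT7, IL7R and SOWAHC in shRent1. Among all genes 22.1% and 25.1% were so called. CSRP1, a LIM domain protein, read 10.69, 10.61, 10.61 and 10.82 with emetine and 11.79, 11.59, 11.71 and 11.83 in shRent1, a difference of -1.05 (SE 0.0635, adjusted p 0.000604) with no overlap. STAU2, which encodes one of the Staufen proteins, was at 1.03 from its brightest probe set and at 0.21 with no call from the median of its 3. KRT7, at -0.85, depended on the probe set, and the call of SOWAHC (-0.70) was lost without the 1.5 or the 3 hr pair.

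Cholesterol synthesis genes were called higher with emetine for 10 of 19 tested and in shRent1 for PMVK, against 22.1% and 25.1% of all genes. HMGCS1, the synthase that commits carbon to the pathway, read 10.45, 10.34, 10.60 and 10.40 with emetine and 9.29, 8.99, 9.15 and 8.95 in shRent1, a difference of 1.35 (SE 0.0784, adjusted p 0.000571). INSIG1, the sterol-regulated anchor of SREBP processing, was at 2.56 (adjusted p 0.00134), and its slope difference of 0.33 was lost without the 4.5 hr pair. MVD in this list and LUM in the mesenchymal list were the members of all lists with a higher slope in shRent1. LUM read 4.36 to 4.68 with emetine, about the filter level. Its slope call was lost without the 0 or the 4.5 hr pair (highest adjusted p 0.196) and with the spread of all 20 arrays. Of the 22 mesenchymal and matrix genes, 10 were called higher in shRent1, including FN1 (-0.41), THY1 (-0.52) and MMP2 (-0.71), against 25.1% of all genes. COL5A2 and RUNX2 were called higher with emetine, against 22.1%.

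**Figure D5:**
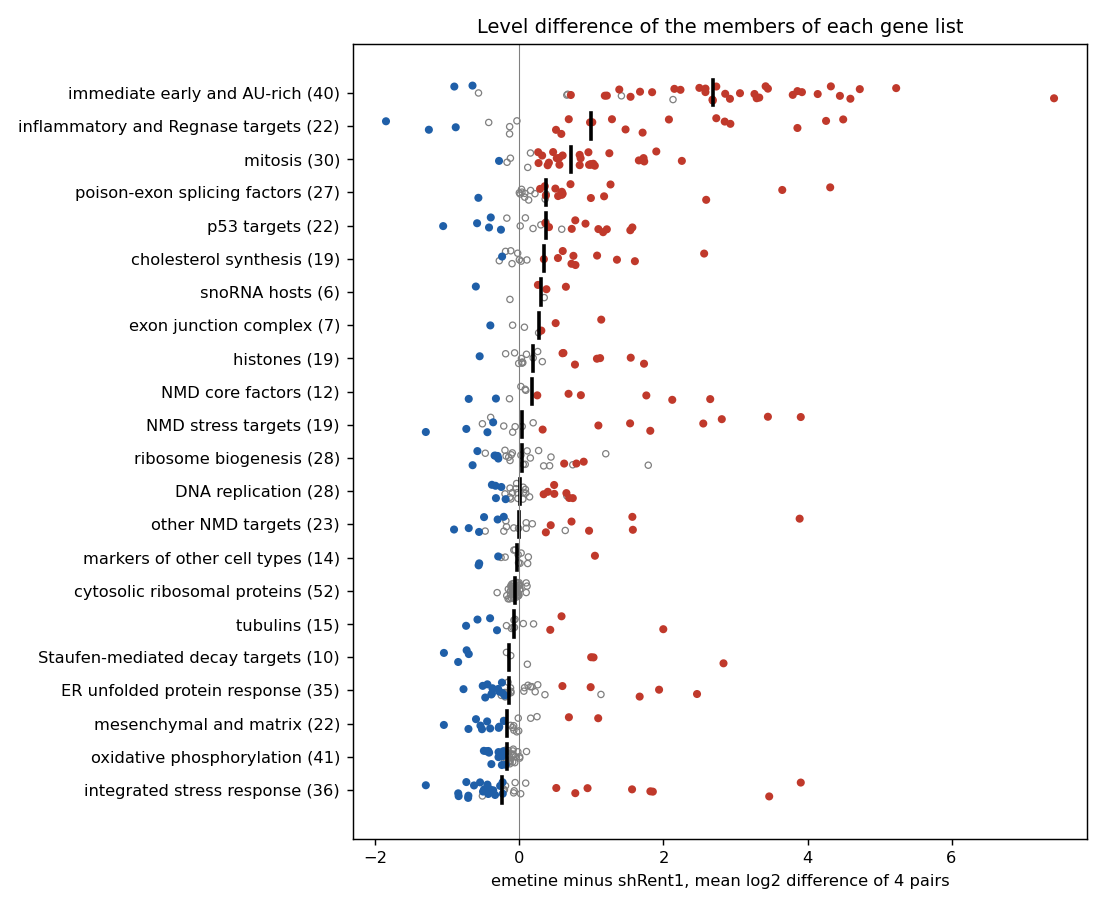
Level difference, emetine minus shRent1 on the log2 scale as the mean of 4 pairs, for the members of each gene list, with the number tested in brackets. Filled points are called (red higher with emetine, blue higher in shRent1), open points are not, vertical offsets are random and the black bar is the list's median. The immediate early list has the highest median, 2.68, the integrated stress response the lowest, -0.24, and the ribosomal proteins lie within a narrow band around 0.

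The transcripts highest in shRent1 relative to emetine were of mixed kinds and mostly dim with emetine. GLIPR1, a secreted protein of the CAP family, was well above the filter level in both conditions, at 8.94, 9.13, 8.99 and 9.11 with emetine and 11.21, 11.38, 11.54 and 11.68 in shRent1. Its difference was -2.41 (SE 0.0872, adjusted p 0.000296), and all 5 of its probe sets had the same sign. NPPB, the precursor of a natriuretic peptide, read 7.19, 7.07, 6.92 and 7.22 with emetine and 9.34, 9.17, 9.52 and 9.64 in shRent1, a difference of -2.32 (SE 0.106, adjusted p 0.000397). In neither did the ranges overlap, and no slope difference was called. MIR100HG, a long noncoding host of microRNAs, had the lowest value, -3.63 (adjusted p 0.00077), with 2 emetine arrays under the filter level and -1.85 from the median of its probe sets. IGF2BP3, an mRNA-binding protein of fetal tissue, was at -2.46, or -1.42 from the median of its 4 probe sets. SPOCD1 was at -2.45 and SLC35G1 at -2.29. BCL2A1 (-2.57), an inhibitor of apoptosis, and EID3 (-2.62) were under the filter level on all 4 emetine arrays, and the call of EID3 was lost without the 1.5 or the 3 hr pair (highest adjusted p 0.0509).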

How the data were processed

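RNA of U2OS cells was measured on 20 Affymetrix arrays, of which the 4 labelled emetine and the 4 labelled shRent1 were used. The authors deposited RMA values as linear intensity for 54675 probe sets (RMA per the submitters' processing notes, with no version given in the sources used here); RMA subtracts background and equalises the arrays, so changes shared by most transcripts are removed. Values were taken to log2 here. Probe sets with 1 symbol in the platform annotation numbered 41091, those with several 1801, and 11777 were unlisted. Of a gene's probe sets the one brightest on average in the 8 arrays was used, and 14449 of 19775 genes passed a filter set at the 40th percentile of signal.

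Level differences were fitted with limma 3.58.1 in R 4.3.3 with a term for each time and 1 for condition (3 residual degrees of freedom), and slope differences with an added term of condition by hour (2 residual degrees of freedom). The time term pairs the arrays by label. Fits were run on simulated data with independent noise and planted differences. That simulation held no change with DRB time shared by the conditions, so it does not show how the fits handle such trends. The labels name no separate cultures, so p-values measure only the spread between these arrays, and the number of arrays limits precision. Named genes were UPF1, ATF4, ATF3, DDIT3, GADD45A and GADD45B, all tubulins, and extremes among called genes. The extremes were the 8 highest and lowest level and 6 highest and lowest slope differences. They needed a mean log2 signal of at least 6 in the higher condition and, for level, the same sign in all 4 pairs. In each list, except the markers of other cell types, the 3 members with the largest statistic for level and the 2 for slope were also named. Other names spell out counts or were chosen after their values were seen. The comparison and the 22 gene lists (527 of 641 entries tested) were chosen with earlier results of these data known. Promoters were matched by symbol, taking the first entry of each (11502 of the genes tested). Alternatives were other filters, scalings, offsets, probe set choices and spreads, and leaving out each pair.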

Additional observations from a re-analysis of the deposited data

Results flagged for a closer look

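In the groups of 4, a single value stood apart by Dixon's criterion for 6 results among 133 named genes. Chance gives about 1 in 20 groups, and with at least 1 group per gene, 6 is not above that rate. The 4 values of a group are times and not replicates, so a value that stands apart need not be a faulty array. UPF1 in shRent1 was at log2 7.41 before DRB, above 6.48 to 6.57 at the later times. The paired difference at 0 hr was 3.19 for SERTAD3, under 5.08 to 5.19 in the other pairs. It was -3.63 for BCL2A1 at 0 hr, under -2.32 to -2.15, and 0.81 for MDM2 at 0 hr, under 0.95 to 0.96. COL5A2 was at 0.56 in the 3 hr pair, under 0.72 to 0.74, and THY1 at -0.73 in the 4.5 hr pair, under -0.47 to -0.44.

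The change after DRB differed between the conditions, by the interaction term, for 50 named genes. For 12 of these, PLK2, RND3, TRMT10C, CLK1, SGK1, TIFA and the genes below 0 other than LUM, the named gene was chosen because its slope difference was among the highest or lowest. The others, except DDIT3, EFNA1, DUSP2, CDKN1A, PPP1R15A and PPM1D, were among the 2 members of a list with the largest slope statistic. Most were named on that ground, so their slope calls were favoured by the choice. The slope difference was 1.22 for PLK2, 1.17 for RND3, 1.10 for TRMT10C, 1.05 for CLK1, 1.05 for SGK1, 1.02 for TIFA, 0.74 for GADD45B, 0.37 for DDIT3 and 0.36 for GADD45A. It was -0.36 for LINC00470, -0.34 for PSMD6-AS2, -0.33 for SMAD7, -0.31 for PROCA1, -0.30 for NR6A1 and -0.29 for ADAM33. Among the other genes, it was 0.96 for MPHOSPH10, 0.90 for SMG8, 0.84 for XBP1, 0.74 for DNAJB9, 0.71 for HNRNPA1, 0.69 for PNRC2, 0.68 for CEBPB, 0.66 for WEE1, 0.61 for RRS1, 0.56 for BTG1, 0.52 for PHLDA1 and 0.51 for CLK4. Smaller values were 0.49 for H2AC8, 0.49 for AEN, 0.47 for SLC38A2, 0.46 for DUSP2, 0.45 for TNFAIP3, 0.42 for PLK3, 0.40 for AURKA, 0.36 for PYM1, 0.35 for EFNA1, 0.33 for SQLE, 0.33 for INSIG1 and 0.29 for TMEM19. The remaining values were 0.29 for IVNS1ABP, 0.29 for ORC1, 0.27 for PPP1R15A, 0.25 for RUNX2, 0.24 for SOWAHC, 0.24 for TGFB2, 0.23 for CDT1, 0.22 for CDKN1A, 0.22 for PPM1D, 0.15 for SLBP and -0.20 for LUM.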

How the results depend on the processing

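The 3192 genes called higher in level with emetine became 2010 to 3433 when 1 pair was left out, and the 3622 in shRent1 became 2144 to 3338. The 1571 genes with a higher slope with emetine became 334 to 1325 without 1 pair and 2460 with a trended, robust spread. The 152 with a higher slope in shRent1 became 9 to 81 without 1 pair, 92 with no filter, 101 with the median of a gene's probe sets and 381 with the trended, robust spread. Fewer arrays enter the fits that leave out a pair, and otherwise the cause was not tested. Without the replicate block, the term that pairs arrays by time, the 4 counts were 3184, 3386, 1715 and 183. Of 4164 alternative values for 266 estimates of named genes, 3812 kept direction and side of the threshold, 57 changed sign with no call before or after (for 35 estimates), 168 lost the call, 110 gained it and 17 reversed with a call on at least 1 side. The median of probe sets reversed TIFA's slope (-0.0426), LINC00470's level (-0.97) and slope (0.00842), and the levels of PYM1 (-0.10), EPB41L4A-AS1 (-0.16) and ATF6 (-0.20). Leaving out probe sets shared between transcripts reversed the level of LINC00470 (-0.98), PYM1 (-0.45), BTG1 (-0.19) and SLC38A2 (-0.00605) and the slope of LINC00470 (0.0367), BTG1 (-0.0242) and SLC38A2 (-0.00655). Both reversed HNRNPA1's level (-0.29) and slope (-0.0696). Of the named genes' calls, 75 of 105 for level and 20 of 50 for slope were kept whichever pair was left out. Another scaling moved the share of level calls on the emetine side from 46.8% to 55.7% at most, and with 1 array per condition and time dim transcripts are limited by background.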

Other observations

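Genes with a zinc finger symbol (ZNF, ZFP, ZSCAN or ZKSCAN with a number, ZFP36 included), a group chosen after values were seen, were prominent on the emetine side. Of 393 tested, 220 (56.0%) were called higher in level with emetine, against 22.1% of all genes, and 145 (36.9%) had a higher slope with emetine, against 10.9%. In shRent1 166 of them (42.2%) fell by more than 2-fold from 0 to 4.5 hr of DRB, and with emetine 5 (1.27%) did. Over all genes those shares were 8.72% and 0.927%.

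Long noncoding RNAs by the RefSeq biotype showed another balance. Of 974 tested, 67 (6.88%) were called higher with emetine and 189 (19.4%) in shRent1, against 23.5% and 25.4% of protein-coding genes. A higher slope with emetine was called for 37 (3.80%) and a higher slope in shRent1 for 33 (3.39%), against 11.6% and 0.858% of 13175 protein-coding genes. Falls of more than 2-fold with emetine were seen for 30 (3.08%) of the noncoding and 87 (0.660%) of the coding genes. Calls also went with signal. In the lowest quartile of signal 1.74% of genes had a higher slope with emetine and 2.05% in shRent1, and in the second highest 18% and 0.498%. The part of signal in the difference between coding and noncoding genes was not tested.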
